A study of Mus musculus with 16 samples.

Results

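Toll-like receptors were followed here through the response of bone marrow-derived dendritic cells (BMDCs) to the bacterial second messenger c-di-GMP, abbreviated CDG. The members were the 10 genes Tlr1, Tlr2, Tlr3, Tlr4, Tlr5, Tlr6, Tlr7, Tlr8, Tlr9 and Tlr13, found by gene symbol among the 23356 genes of the deposited expression table. RNA-seq was carried out on BMDCs of wild-type (WT), Tmem173-/-, Irf1-/- and Irf3/7-/- mice, the last lacking both Irf3 and Irf7. The labels give the C57BL/6 background for all mice and no age. All cells were grown from bone marrow for 6 days with GM-CSF and IL-4, and were then left untreated (NT) or given CDG for 18 h. The labels give a CDG dose of 25 μg/ml, while the study's legend for these data gives a higher one. The labels list 16 samples, 2 for each of the 8 conditions. The knockouts are germline deletions, so the cells lacked the gene during differentiation in culture as well as during stimulation.

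Toll-like receptors are membrane proteins that bind conserved molecules of microbes. TLR2, paired with TLR1 or TLR6, binds bacterial lipopeptides, TLR4 binds lipopolysaccharide and TLR5 binds flagellin, all at the cell surface. TLR3, TLR7, TLR8, TLR9 and TLR13 reside in endosomes and bind nucleic acids. The cytosolic DNA pathway studied here is separate: c-di-GMP binds STING, the product of Tmem173, and STING signals through the kinase TBK1 to the transcription factors IRF3, IRF7 and NF-κB. The expression of several Toll-like receptor genes is known to respond to interferons, whose production follows STING activation. IRF1 is a further transcription factor of the interferon response.

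The deposited value of a gene in a condition was 1 FPKM, a fragment count scaled to transcript length and to the total of mapped fragments, which the authors computed over both samples of that condition, together with the bounds of a confidence interval. No spread between replicates could therefore be computed, and no p-value is given. FPKM values do not show how deeply each sample was sequenced. The interval stood in for the precision: for member values of 1 FPKM or more, the distance from the FPKM to either bound was between 22.5% and 35.4% of the FPKM, with a median of 26.9% over 126 bounds. A gene was tested in a comparison when it reached 1 FPKM in one of the conditions compared. It was called higher or lower when log2(FPKM + 0.1) differed by more than 2-fold and the intervals did not overlap. This pseudocount understates the change of genes with low values.

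Transcripts of the deleted genes were read as a check of the labels. Tmem173 had 103 FPKM in WT NT and 118 FPKM in WT CDG, against 8.97 and 7.49 FPKM in Tmem173-/- NT and CDG. Irf1 had 149 and 245 FPKM in WT NT and CDG, and 25.9 and 116 FPKM in Irf1-/- NT and CDG. Within Irf1-/- BMDCs it thus rose 4.45-fold after CDG. Its interval in Irf1-/- CDG (82.8 to 149 FPKM) lay below that of WT CDG (176 to 314) but overlapped that of WT NT (113 to 185). Irf1 therefore checks the Irf1-/- CDG label only in part. Irf7 had 15.2 and 687 FPKM in WT NT and CDG, against 1.07 and 4.97 FPKM in Irf3/7-/- NT and CDG. Tmem173-/- NT and CDG were low in these genes too, with Irf1 at 24.1 and 23.3 FPKM and Irf7 at 3.17 and 3.37 FPKM. Low Irf1 and Irf7 were thus not particular to the genotypes that lack them. Irf3 was lower in Irf3/7-/- NT (7.74 FPKM) than in WT NT (19.9 FPKM), but in the condition labelled Irf3/7-/- CDG its value was 20.2 FPKM, against 15.8 FPKM in WT CDG. An FPKM over a whole gene does not show whether the deleted exons were absent, so for Irf3/7-/- CDG the label is checked by Irf7 and not by Irf3. All 8 BMDC markers examined, among them Itgax and H2-Ab1, were at 1 FPKM or more in every condition.

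Markers of other cells differed between genotypes. The summed FPKM of 5 neutrophil genes was 18763 and 13551 in Tmem173-/- NT and CDG, and between 1372 and 3960 in the other 6 conditions. S100a8 and S100a9 made up nearly all of this sum, with 10351 and 8336 FPKM in Tmem173-/- NT. Cxcr2, of the same list, went the other way, with 15.4 FPKM in Tmem173-/- NT against 72.4 FPKM in WT NT. That of 7 macrophage genes was 406 and 400 in Tmem173-/- NT and CDG and 97.7 and 86.9 in Irf1-/- NT and CDG. It lay between 127 and 169 in WT and Irf3/7-/- BMDCs. Some members of this list went the other way. Mertk had 2.83 and 3.74 FPKM in Tmem173-/- NT and CDG, against 4.89 and 16.9 FPKM in WT. Mrc1 had 17.3 and 2.24 FPKM in Irf1-/- NT and CDG, against 9.52 and 0.721 FPKM in WT. The summed FPKM of 6 T and NK cell genes was at most 0.436 in Tmem173-/- BMDCs and at most 10.5 in Irf1-/- BMDCs. It was 386 and 353 in WT NT and CDG and 367 and 983 in Irf3/7-/- NT and CDG. Gzma made up most of this sum in WT, with 349 and 329 FPKM. The sum of 5 B cell genes lay between 3.34 and 10.7, with Pax5 at 0 in WT CDG. Siglech, a defining gene of plasmacytoid dendritic cells, was at most 0.363 FPKM in any condition. Of the same list, Ccr9 and Klk1 also stayed under 1 FPKM, while Bst2 reached 1253, Tcf4 9.65, Spib 6.20 and Ly6d 2.80 FPKM. The list for type 1 conventional dendritic cells holds Tlr3 and 5 other genes. Of these, Batf3 had 126 and 213 FPKM in WT NT and CDG, and 88.0 and 56.8 FPKM in Tmem173-/-. Xcr1 had 0.268 and 1.12 FPKM in WT, and 0.259 and 0.238 FPKM in Tmem173-/-. Clec9a (1.02 and 0.470 FPKM) and Itgae (1.35 and 0.292 FPKM) went down in WT. Cadm1 was at most 0.151 FPKM. The part of these cells in the receptor values was not tested. In bulk RNA, fewer cells of a type and less RNA per cell cannot be told apart.

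**Figure D1:**
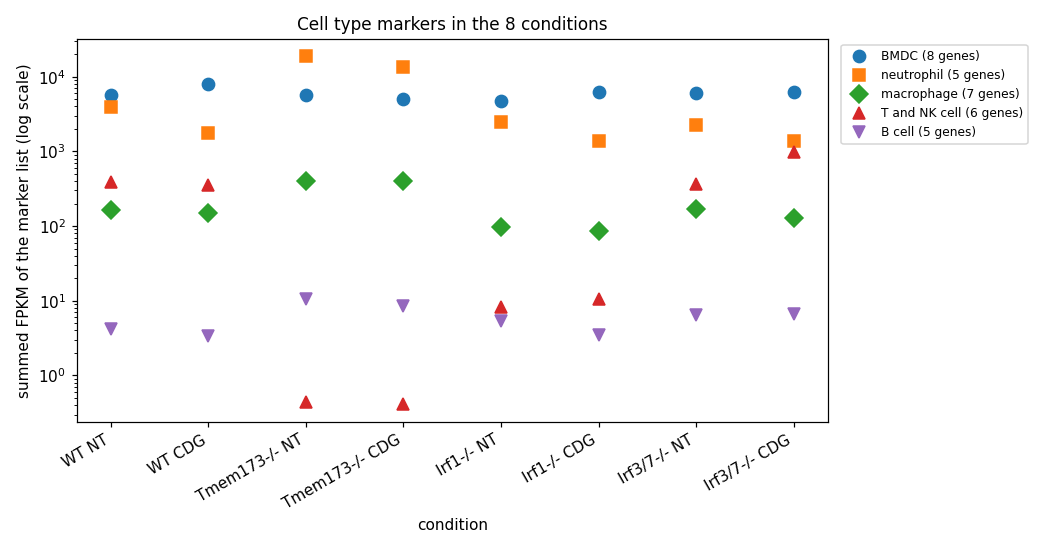
Summed FPKM (log axis) of 5 lists of cell type markers in the 8 conditions, 1 point per list and condition. The neutrophil and macrophage sums are highest in both Tmem173-/- conditions, where the T and NK cell sum is lowest.

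All 10 receptor genes had a valid estimate in every condition. Tlr2 had the highest FPKM and Tlr4 the next highest in each of the 8 conditions, and Tlr5 had the lowest in each. In WT NT the order was Tlr2 (21.0 FPKM), Tlr4 (19.5), Tlr13 (10.1), Tlr8 (7.48), Tlr9 (5.16), Tlr7 (2.14), Tlr6 (1.70), Tlr1 (1.26), Tlr3 (0.606) and Tlr5 (0.00650). The intervals of neighbours in this order overlapped for Tlr2 and Tlr4, Tlr13 and Tlr8, Tlr8 and Tlr9, Tlr7 and Tlr6, and Tlr6 and Tlr1. Steps beyond the intervals thus lay below Tlr4, below Tlr9, below Tlr1 and below Tlr3. In WT CDG the order changed to Tlr2 (67.3 FPKM), Tlr4 (32.5), Tlr13 (15.2), Tlr7 (11.9), Tlr9 (11.2), Tlr3 (6.77), Tlr8 (5.58), Tlr6 (4.19), Tlr1 (1.39) and Tlr5 (0.00983). Between Tlr13 and Tlr6 no step between neighbours exceeded the intervals. Tlr7, Tlr9 and Tlr3 had moved up past Tlr8 in this order.

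The summed FPKM of the 10 genes was 69.0 in WT NT and 156 in WT CDG. Tmem173-/- BMDCs had sums of 162 (NT) and 184 (CDG). The sums of Irf1-/- BMDCs were 47.0 (NT) and 60.3 (CDG), and Irf3/7-/- BMDCs had 59.5 (NT) and 102 (CDG). Untreated Tmem173-/- BMDCs thus held about as much summed receptor transcript as treated WT BMDCs. Their makeup differed: Tlr2 alone gave 54.2% of the sum in Tmem173-/- NT and 43.1% in WT CDG, and the 5 endosomal receptors gave 25.8% and 32.5%. No interval is available for a sum.

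**Figure D2:**
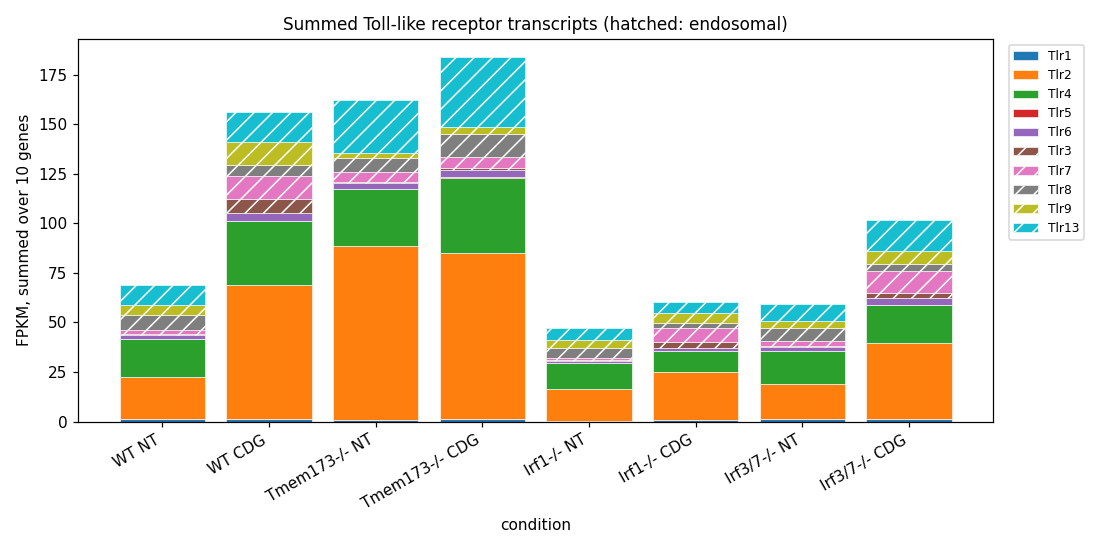
FPKM of the 10 receptor genes stacked for each of the 8 conditions, endosomal receptors hatched. The bars reach 69.0 FPKM in WT NT, 156 in WT CDG, 162 and 184 in the Tmem173-/- conditions and 60.3 in Irf1-/- CDG.

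The first comparison addressed which receptor genes respond to CDG in WT BMDCs. Of the 10 genes 5 rose (Tlr2, Tlr3, Tlr6, Tlr7 and Tlr9) and none fell. Among all genes tested, 10.5% were called higher and 9.96% lower. The median log2 change was 1.11 over the 9 receptor genes tested and 0.00334 over all genes tested. Tlr3 was tested only because it reached 1 FPKM after treatment, and the same held within Irf1-/- and Irf3/7-/- BMDCs. With a pseudocount of 1 FPKM, Tlr6 (log2 change 0.94) and Tlr9 (0.99) fell short of the threshold.

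Among the surface receptors, Tlr2 rose 3.19-fold, from 21.0 FPKM (interval 15.2 to 26.7) to 67.3 FPKM (48.5 to 86.0). Tlr6, which encodes a partner of TLR2 for diacylated lipopeptides, rose 2.39-fold, from 1.70 FPKM (1.13 to 2.25) to 4.19 FPKM (3.03 to 5.34). Tlr1, the other partner of TLR2, had 1.26 FPKM (0.833 to 1.68) and 1.39 FPKM (0.930 to 1.84), which overlap almost entirely. Tlr4, the lipopolysaccharide receptor, had 19.5 FPKM (14.2 to 24.7) in WT NT and 32.5 FPKM (24.5 to 40.4) in WT CDG. These intervals overlapped narrowly, and the log2 change was 0.73. Tlr5 was at most 0.129 FPKM in any condition and was tested in no comparison.

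Among the endosomal receptors, Tlr3, which binds double-stranded RNA, rose 9.73-fold in FPKM + 0.1, from 0.606 FPKM (0.377 to 0.827) to 6.77 FPKM (5.03 to 8.50). Tlr7, a receptor for single-stranded RNA, rose 5.37-fold, from 2.14 FPKM (1.46 to 2.81) to 11.9 FPKM (8.89 to 15.0). Tlr9, which binds unmethylated CpG DNA, rose 2.15-fold, from 5.16 FPKM (3.81 to 6.52) to 11.2 FPKM (8.33 to 14.1). These 3 genes separated clearly between untreated and treated WT BMDCs. Tlr13, a receptor for bacterial ribosomal RNA, had 10.1 FPKM (7.70 to 12.5) and 15.2 FPKM (11.8 to 18.7), and was not called. Tlr8 was the single tested receptor with a lower value after CDG, 7.48 FPKM (5.40 to 9.54) against 5.58 FPKM (4.16 to 7.00), with overlapping intervals.

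**Figure D3:**
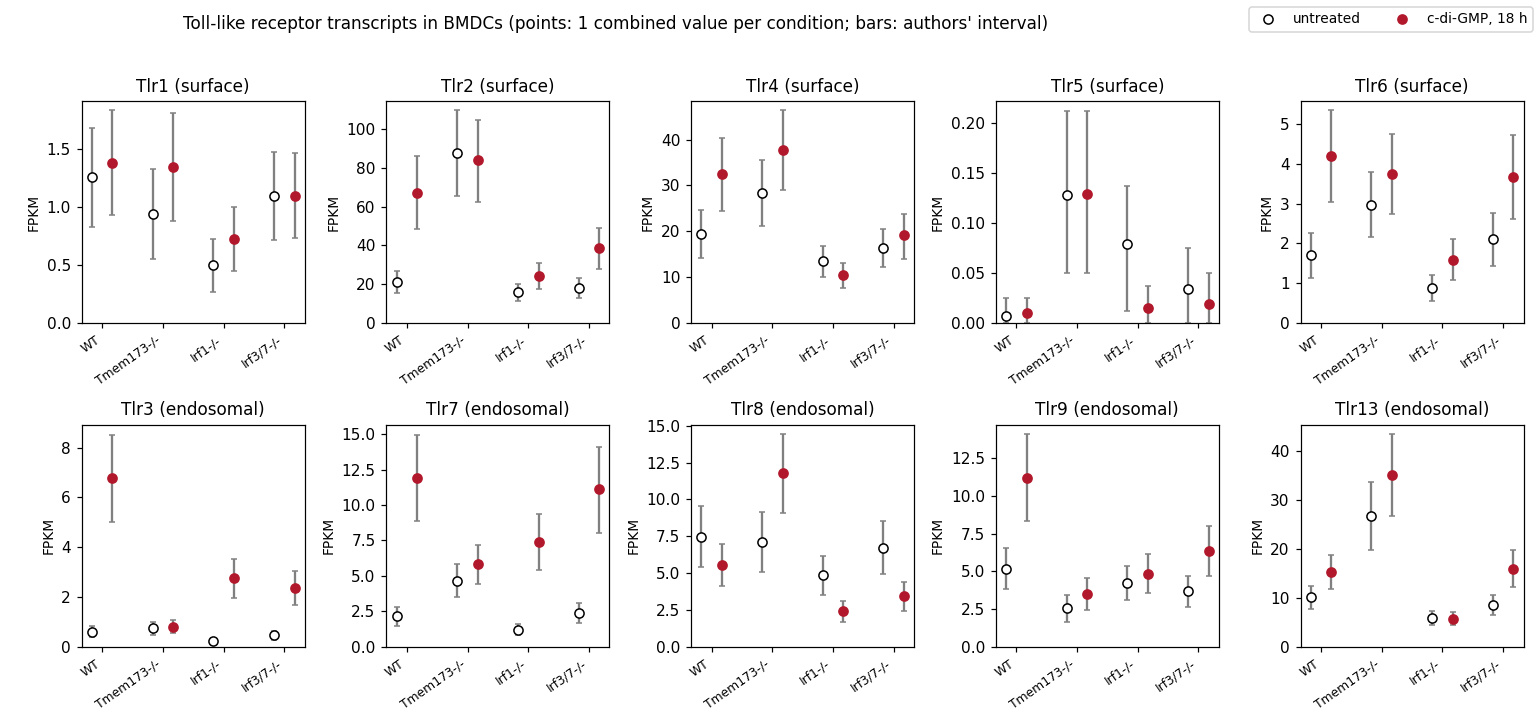
FPKM (linear axes from 0, 1 panel per gene) in untreated (open) and CDG-treated (filled) BMDCs of the 4 genotypes. Points are the combined value of a condition and bars the authors' interval; Tlr3 rises in WT, Irf1-/- and Irf3/7-/- BMDCs, while in Tmem173-/- BMDCs it stays at 0.733 and 0.801 FPKM.

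In the coordinates of the table, which match GRCm38, the 10 genes lie on 7 chromosomes. Tlr2 spans chr3:83836272-83841608, Tlr3 chr8:45395665-45410539 and Tlr9 chr9:106222598-106226876. Tlr6 (chr5:64953095-64960034) lies 19536 bases from Tlr1 (chr5:64924680-64933558), and Tlr7 (chrX:167304931-167330528) lies 41142 bases from Tlr8 (chrX:167242732-167263788). In both pairs of neighbours a single gene was called higher in treated WT BMDCs. No other gene of the table overlaps a member. Tlr1 and Tlr6 are close relatives in sequence, so reads that fit both genes could have been divided between them, and their values are less certain for that reason.

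Promoter sequence from RefSeq (GRCm38.p6, 250 bases before an annotated start) was matched by symbol for 8 of the 10 genes, Tlr4 and Tlr7 having no entry. The NF-κB, ISRE and GAS types of short motif were searched on both strands. An NF-κB-type motif, GGGNNNTTCC, was in the window of 3 of the 8 genes (Tlr2, Tlr3 and Tlr6), and in 5.31% of 27025 genes with a promoter entry. An interferon-response-type motif (ISRE), GAAANNGAAA, was in 1 of the 8 genes (Tlr6, as 2 matches that overlap), and in 3.46% of all genes. A STAT-type motif (GAS), TTCNNNGAA, which reads alike on both strands, was in 2 of the 8 genes (Tlr1 and Tlr8), and in 8.13% of all genes. A match is a description of the letters and does not show that a factor binds there. The windows of Tlr2, Tlr6 and Tlr9 are shown because these genes rose in treated WT BMDCs. They are restricted to the longest stretch outside exons of the GENCODE annotation, on the strand of the gene, with the matched motifs in capitals. Exons of RefSeq were not removed. The RefSeq gene of Tlr2 reaches chr3:83841824, so the Tlr2 match lies inside its span. The match of Tlr3 lies outside the longest such stretch of its window and is not shown.
Tlr2, chr3:83841768-83841858, minus strand: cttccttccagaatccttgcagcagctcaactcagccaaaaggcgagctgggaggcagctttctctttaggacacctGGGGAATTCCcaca
Tlr6, upstream start, chr5:64960098-64960298, minus strand: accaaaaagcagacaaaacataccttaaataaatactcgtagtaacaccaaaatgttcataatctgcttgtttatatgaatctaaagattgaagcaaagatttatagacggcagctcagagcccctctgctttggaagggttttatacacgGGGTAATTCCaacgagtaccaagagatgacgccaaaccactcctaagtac
Tlr6, downstream start, chr5:64959167-64959416, minus strand: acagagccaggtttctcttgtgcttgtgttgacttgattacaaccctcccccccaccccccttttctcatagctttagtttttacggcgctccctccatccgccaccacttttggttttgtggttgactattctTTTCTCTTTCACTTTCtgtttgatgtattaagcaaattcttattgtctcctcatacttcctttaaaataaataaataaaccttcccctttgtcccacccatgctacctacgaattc
Tlr9, chr9:106222348-106222597, plus strand: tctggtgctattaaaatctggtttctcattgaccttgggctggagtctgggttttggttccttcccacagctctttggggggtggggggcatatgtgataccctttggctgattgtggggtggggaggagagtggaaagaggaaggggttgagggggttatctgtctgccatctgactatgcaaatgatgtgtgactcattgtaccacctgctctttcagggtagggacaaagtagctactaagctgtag
The capitals in Tlr2 and in the upstream Tlr6 stretch mark the NF-κB-type match, at -173 to -164 and -99 to -90 from the annotated start. Those in the downstream Tlr6 stretch mark the ISRE-type matches, written on the opposite strand, from -116 to -101. The RefSeq gene of Tlr6 reaches chr5:64970942, so both Tlr6 stretches lie inside it. No window at that end of the gene was searched. Tlr9, which also rose, holds none of the 3 motifs in this window.

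The second comparison asked for the same response without STING. In Tmem173-/- BMDCs none of the 8 receptor genes tested was called, against 0.046% of all genes called higher and 0.0092% called lower. Tlr3 had 0.733 FPKM (0.487 to 0.983) in Tmem173-/- NT and 0.801 FPKM (0.551 to 1.057) in Tmem173-/- CDG. Tlr7 had 4.66 FPKM (3.50 to 5.83) and 5.80 FPKM (4.43 to 7.18), and Tlr2 had 87.9 FPKM (65.7 to 110) and 83.9 FPKM (62.3 to 105). These pairs of intervals overlap widely. The difference from WT in the log2 change was -3.17 for Tlr3, -2.11 for Tlr7 and -1.74 for Tlr2, with no test available for it.

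Untreated Tmem173-/- BMDCs did not start from the WT level. Against WT NT, Tlr2 was 4.16-fold higher, Tlr13 was 2.63-fold higher and Tlr7 was 2.12-fold higher, the last call being lost with a pseudocount of 1 FPKM. None of the 10 receptor genes was called lower. Among all genes tested, 5.04% were higher and 5.95% lower. Tlr13 had 26.7 FPKM (19.7 to 33.7) in Tmem173-/- NT against 10.1 FPKM (7.70 to 12.5) in WT NT. Tlr9 went the other way, with 2.57 FPKM (1.66 to 3.45) against 5.16 FPKM (3.81 to 6.52). Its intervals did not overlap, but its log2 difference of -0.98 was just short of the threshold. The neutrophil and macrophage marker sums were also higher in these cells, the first through S100a8 and S100a9 and with Cxcr2 lower, as given above. Mertk, of the macrophage list, had a lower value than in WT NT.

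After treatment, the endosomal receptors divided between Tmem173-/- and WT BMDCs. Tlr3 was 7.62-fold lower, Tlr9 3.12-fold lower and Tlr7 2.04-fold lower in Tmem173-/- CDG than in WT CDG. Tlr13 was 2.29-fold higher and Tlr8 2.09-fold higher. Tlr3 was tested only because it reached 1 FPKM in WT CDG. All 5 endosomal receptors were called and none of the 4 tested surface receptors was, while 12.9% of all genes were called higher and 13.5% lower. Tlr8 had 11.8 FPKM (9.08 to 14.4) in Tmem173-/- CDG, the highest of its 8 values, against 5.58 FPKM (4.16 to 7.00) in WT CDG. With a pseudocount of 1 FPKM, Tlr7 and Tlr8 were no longer called. Tlr2 had 83.9 and 67.3 FPKM and Tlr4 had 37.8 and 32.5 FPKM, with overlapping intervals.

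**Figure D4:**
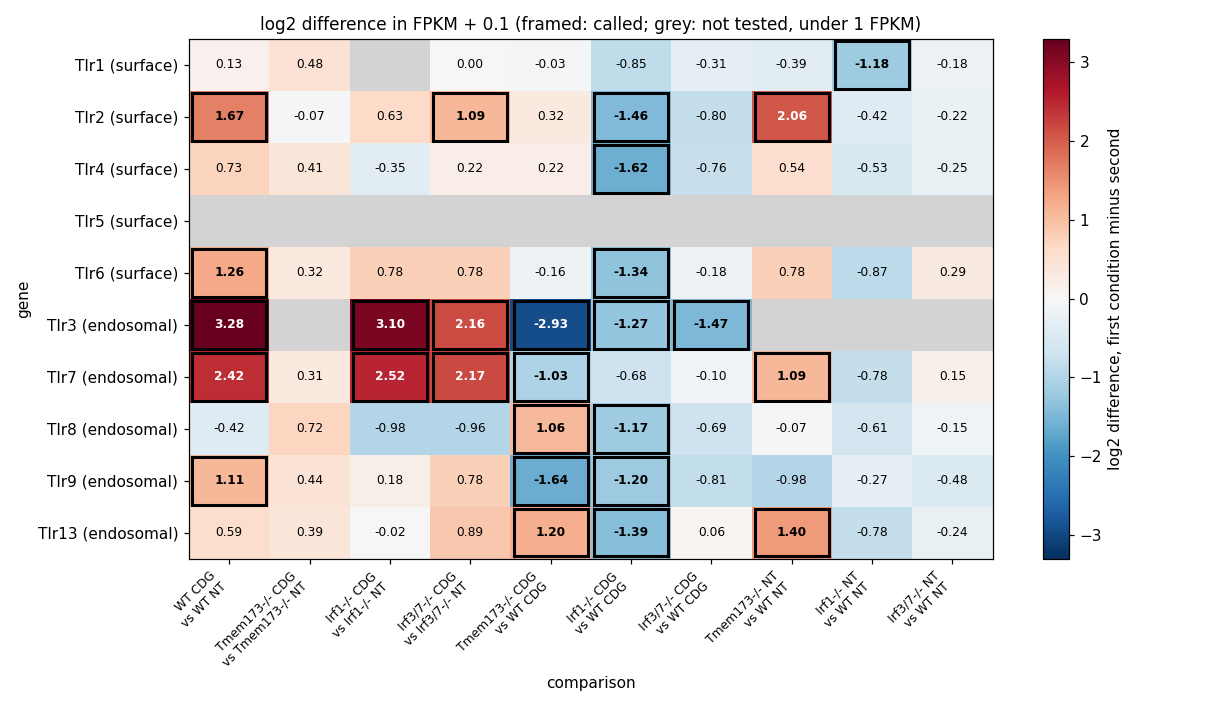
Log2 difference of FPKM + 0.1 for the 10 genes (rows) in the 10 comparisons (columns), red for higher and blue for lower in the condition named first; frames mark called genes and grey cells were not tested. The column of Irf1-/- CDG against WT CDG holds 7 framed cells, all blue, and that of the Tmem173-/- response holds none.

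The role of Irf1 was addressed by the same comparisons in Irf1-/- BMDCs. Within this genotype, Tlr3 and Tlr7 rose after CDG and no other receptor gene was called, with 9.67% of all genes called higher and 7.81% lower. Tlr3 rose 8.55-fold in FPKM + 0.1, from 0.233 FPKM (0.119 to 0.340) to 2.75 FPKM (1.97 to 3.53). Tlr7 rose 5.76-fold, from 1.20 FPKM (0.796 to 1.60) to 7.39 FPKM (5.40 to 9.36). With this pseudocount the log2 changes of both were within 0.19 of those in WT, but they started from lower values. The change of Tlr3 depended on the pseudocount: with 1 FPKM its log2 change was 1.60 in Irf1-/-, 2.27 in WT and 1.22 in Irf3/7-/- BMDCs, and it was called in all 3.

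The other genes that rose in WT were not called in Irf1-/- BMDCs. Tlr2 had 15.7 FPKM (11.3 to 20.2) and 24.4 FPKM (17.5 to 31.2), Tlr6 had 0.885 FPKM (0.551 to 1.21) and 1.59 FPKM (1.07 to 2.11), and Tlr9 had 4.25 FPKM (3.10 to 5.38) and 4.84 FPKM (3.54 to 6.14). The intervals overlapped in each case. Tlr4 had 13.4 FPKM (9.95 to 16.8) without and 10.5 FPKM (7.73 to 13.2) with CDG. Its log2 change was -0.35, against 0.73 in WT. Tlr8 went from 4.86 FPKM (3.54 to 6.17) to 2.42 FPKM (1.70 to 3.12). These intervals did not overlap, and the log2 change of -0.98 missed the threshold.

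In treated cells, 7 of the 10 receptor genes were lower in Irf1-/- than in WT BMDCs and none was higher, against 4.91% of all genes called lower and 2.65% called higher. Tlr4 was 3.08-fold lower, Tlr2 2.75-fold, Tlr13 2.63-fold, Tlr6 2.53-fold, Tlr3 2.41-fold, Tlr9 2.29-fold and Tlr8 2.26-fold. They came from both sites, 3 from the surface and 4 from endosomes. The median log2 difference was -1.27 over the 9 receptor genes tested and 0.0200 over all genes tested. All 9 had a difference below 0, as had 46.9% of all genes tested. Tlr1 was tested only because it reached 1 FPKM in WT CDG. With a pseudocount of 1 FPKM, the calls of Tlr6 and Tlr8 were lost. The 2 not called were Tlr7, with 7.39 FPKM (5.40 to 9.36) in Irf1-/- CDG against 11.9 FPKM (8.89 to 15.0) in WT CDG, and Tlr1, with 0.725 FPKM (0.448 to 1.003) against 1.39 FPKM (0.930 to 1.84).

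Untreated Irf1-/- BMDCs had lower values too. All 8 receptor genes tested were below WT NT, as were 50.4% of all genes tested, with a median log2 difference of -0.70. Tlr1 and Tlr6 were tested only because they reached 1 FPKM in WT NT, where they were higher. Tlr5, which was not tested, went the other way, with 0.0788 against 0.00650 FPKM and overlapping intervals. Only Tlr1 was called, and not with a pseudocount of 1 FPKM, at 0.497 FPKM (0.271 to 0.723) against 1.26 FPKM (0.833 to 1.68), while 3.52% of all genes were called lower and 1.26% higher. Tlr3 was under 1 FPKM in both and was not tested, at 0.233 FPKM (0.119 to 0.340) against 0.606 FPKM (0.377 to 0.827). Tlr13 was the single receptor gene tested whose intervals did not overlap while its difference was under 2-fold, with 5.83 FPKM (4.43 to 7.23) against 10.1 FPKM (7.70 to 12.5). The macrophage marker sum was lower in Irf1-/- than in WT BMDCs with and without CDG, while Mrc1 had higher values, as given above. The part of these markers in the receptor differences was not tested.

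Irf3/7-/- BMDCs addressed the other arm of STING signalling. Within this genotype Tlr2, Tlr3 and Tlr7 rose after CDG and none fell, with 10.2% of all genes called higher and 7.68% lower. Tlr7 rose 4.50-fold, from 2.39 FPKM (1.69 to 3.09) to 11.1 FPKM (8.06 to 14.1). Tlr3 rose 4.48-fold in FPKM + 0.1, from 0.452 FPKM (0.276 to 0.634) to 2.37 FPKM (1.66 to 3.06). Tlr2 rose 2.13-fold, from 18.1 FPKM (13.0 to 23.0) to 38.6 FPKM (27.9 to 49.0). For 3 further genes the intervals did not overlap but the change was under 2-fold: Tlr13 and Tlr9 were higher after CDG, by 0.89 and 0.78 on the log2 scale, and Tlr8 had a log2 change of -0.96.

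Against WT CDG, Tlr3 was the single one of the 10 receptor genes called in Irf3/7-/- CDG, 2.78-fold lower, at 2.37 FPKM (1.66 to 3.06) against 6.77 FPKM (5.03 to 8.50). Among all genes tested 2.69% were lower and 4.61% higher. Tlr7 was at nearly the same level, 11.1 FPKM (8.06 to 14.1) against 11.9 FPKM (8.89 to 15.0). Tlr4 had 19.1 FPKM (13.97 to 23.9) against 32.5 FPKM (24.5 to 40.4), and Tlr9 had 6.37 FPKM (4.70 to 8.04) against 11.2 FPKM (8.33 to 14.1). For both the intervals did not overlap and the difference was under 2-fold. In the untreated comparison of Irf3/7-/- with WT none of the 10 was called, while 1.17% of all genes were higher and 0.863% lower.

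The treated levels of 4 receptor genes were set side by side across genotypes. Tlr3 had 6.77 FPKM in WT, 2.75 in Irf1-/-, 2.37 in Irf3/7-/- and 0.801 in Tmem173-/- BMDCs, where the intervals of Irf1-/- and Irf3/7-/- overlapped and the others were apart. Tlr7 had 11.9 FPKM in WT, 11.1 in Irf3/7-/-, 7.39 in Irf1-/- and 5.80 in Tmem173-/- BMDCs, and the intervals of neighbours in this order overlapped. Tlr2 had 83.9 FPKM in Tmem173-/-, 67.3 in WT, 38.6 in Irf3/7-/- and 24.4 in Irf1-/- BMDCs, where the intervals of neighbours overlapped and that of Irf1-/- lay apart from that of WT. Tlr13 had 35.1 FPKM in Tmem173-/-, 15.9 in Irf3/7-/-, 15.2 in WT and 5.74 in Irf1-/- BMDCs, with an overlap for Irf3/7-/- and WT alone.

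Genes whose values followed a receptor most closely were listed for the 4 receptors with the widest range, by Pearson's r of log2(FPKM + 0.1) over the 8 conditions among 7376 genes. The points share genotypes and treatments, so r is a description. Tlr3 was most like C3ar1 (r = 0.99), Rab5c (r = 0.99) and Trim30b (r = 0.98). Tlr7 was most like P2ry14 (r = 0.99), Fam174a and Zfp384 (both r = 0.98). For Tlr2, the genes most like it included Elk3 (r = 0.98) and Sgms2 (r = 0.97). Tlr13 was most like Cd33, Pag1 (both r = 0.99) and Lpcat2 (r = 0.98). Among the receptors themselves, the highest values of r were 0.91 for Tlr4 and Tlr13, for Tlr3 and Tlr7, and for Tlr2 and Tlr13. C3ar1, the receptor of complement C3a, had 8.56 FPKM in WT NT and 26.8 in WT CDG. P2ry14, a receptor for UDP-glucose, had 30.7 and 141 FPKM.

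The genes that work with the receptors were examined as lists holding 48 genes in all. In treated against untreated WT BMDCs 11 of the 46 tested rose and 3 fell, while 10.5% of all genes were called higher and 9.96% lower. Within Tmem173-/- BMDCs none of 46 was called, beside 0.046% of all genes called higher and 0.0092% lower, so this count was close to those shares. Within Irf1-/- BMDCs 11 of 45 rose and 4 fell (9.67% and 7.81% of all genes), and within Irf3/7-/- BMDCs 11 of 46 rose and 2 fell (10.2% and 7.68% of all genes). In treated cells, 6 of 46 were higher and 10 lower in Tmem173-/- than in WT BMDCs, beside 12.9% and 13.5% of all genes. In Irf1-/- BMDCs 1 of 45 was higher and 3 were lower (2.65% and 4.91% of all genes), and in Irf3/7-/- BMDCs 2 of 46 were higher and 1 lower (4.61% and 2.69% of all genes), so these counts were close to the shares over all genes. Without CDG, Tmem173-/- BMDCs had 6 of 47 higher and 1 lower than WT (5.04% and 5.95% of all genes). Irf1-/- BMDCs had 2 of 46 higher and 3 lower (1.26% and 3.52% of all genes), and Irf3/7-/- BMDCs had 1 of each (1.17% and 0.863% of all genes).

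Of the 5 genes tested from the list of co-receptors and related proteins, 3 rose and 1 fell in WT, beside 10.5% and 9.96% of all genes. Cd14, which hands lipopolysaccharide to TLR4, went from 18.5 to 181 FPKM in WT, from 181 to 151 in Tmem173-/-, from 10.6 to 12.9 in Irf1-/- and from 8.57 to 84.2 in Irf3/7-/- BMDCs. It rose in WT and Irf3/7-/- BMDCs, and was 13.95-fold lower in Irf1-/- CDG than in WT CDG. Ly96, which encodes the TLR4 partner MD-2, rose from 12.7 to 30.6 FPKM in WT and from 13.9 to 31.7 FPKM in Irf1-/- BMDCs. Cd180, a receptor-like protein of B cells and dendritic cells, rose from 25.8 to 59.9 FPKM in WT and from 12.8 to 27.5 FPKM in Irf1-/- BMDCs. Cd36, a scavenger receptor that assists TLR2 and TLR6, fell from 410 to 77.8 FPKM in WT. It fell in Irf1-/- (640 to 159 FPKM) and Irf3/7-/- BMDCs (570 to 251 FPKM) too, and in Tmem173-/- BMDCs it had 563 and 615 FPKM.

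The proteins that carry endosomal receptors to their site, such as UNC93B1, formed a list of 7 genes. None of them was called in any of the 10 comparisons, where between 0.0092% and 13.5% of all genes were called in a direction. Of the 5 endosomal proteases, which cut the receptors into their active form, 2 rose in WT, 3 in Irf1-/- and 4 in Irf3/7-/- BMDCs. Among all genes tested, 10.5%, 9.67% and 10.2% were called higher in these responses. Ctsk rose from 2.29 to 19.2 FPKM and Ctsb from 224 to 609 FPKM in WT, and both rose in Irf1-/- and Irf3/7-/- BMDCs. Neither protease was called between treated Irf1-/- or Irf3/7-/- and treated WT BMDCs, where at most 4.91% of all genes were called in a direction.

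Among 7 adaptors tested, 2 rose in WT, beside 10.5% of all genes. These were Traf6, the ubiquitin ligase downstream of MyD88, from 16.4 to 37.0 FPKM, and Pik3ap1, which links receptors to PI3-kinase, from 25.2 to 51.5 FPKM. Pik3ap1 was lower in Irf1-/- than in WT BMDCs both without CDG (10.7 FPKM) and with it (22.0 FPKM). Among 12 kinases, 2 rose in WT, beside 10.5% of all genes: Irak2 from 17.7 to 43.4 FPKM and Tbk1 from 25.8 to 56.9 FPKM. No kinase was called between treated Irf1-/- or Irf3/7-/- and treated WT BMDCs. Among all genes tested, 2.65% were higher and 4.91% lower in Irf1-/- BMDCs, and 4.61% and 2.69% in Irf3/7-/- BMDCs. Irak2 had 24.9 FPKM (18.7 to 31.0) in Irf1-/- CDG and 25.0 FPKM (18.6 to 31.4) in Irf3/7-/- CDG. Both intervals lay below that of WT CDG (32.6 to 54.1), and the log2 differences of -0.80 and -0.79 missed the threshold. Of 10 negative regulators, 2 rose and 2 fell in WT, beside 10.5% and 9.96% of all genes. Tnfaip3, which encodes the deubiquitinase A20, rose from 34.4 to 114 FPKM, and Tnip1, its partner, from 40.1 to 108 FPKM. Il1rl1, the IL-33 receptor, fell from 6.55 to 1.55 FPKM and Nlrc3 from 2.07 to 0.755 FPKM. Nlrc3 was tested only because it reached 1 FPKM in WT NT. In Irf1-/- BMDCs Il1rl1 fell from 26.9 to 2.36 FPKM.

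The other mouse Toll-like receptors in the table, Tlr11 and Tlr12, which bind the profilin of protozoa, both fell in WT, Tlr11 from 5.72 to 1.40 FPKM and Tlr12 from 1.62 to 0.368 FPKM. Both fell in Irf3/7-/- BMDCs as well, Tlr11 from 7.15 to 0.320 FPKM and Tlr12 from 2.16 to 0.850 FPKM. Among all genes tested, 9.96% were called lower in the WT response and 7.68% in the Irf3/7-/- response. Tlr12 in both responses and Tlr11 in Irf3/7-/- BMDCs were tested only through the untreated condition, where they were higher. In Tmem173-/- BMDCs Tlr11 had 1.76 and 1.86 FPKM. In Irf1-/- BMDCs it had 0.855 and 0.0541 FPKM, under the 1 FPKM needed for a test. Both genes were lower than in WT NT in Tmem173-/- NT (Tlr11 3.13-fold, Tlr12 2.003-fold) and in Irf1-/- NT (Tlr11 6.10-fold, Tlr12 3.44-fold). Among all genes tested, 5.95% and 3.52% were called lower in these comparisons. Tlr12 in both and Tlr11 in Irf1-/- NT were tested only because they reached 1 FPKM in WT NT, where they were higher. The 2.003-fold difference of Tlr12 was only just over the threshold. After CDG, Tlr11 was 9.71-fold lower in FPKM + 0.1 in Irf1-/- and 3.56-fold lower in Irf3/7-/- than in WT BMDCs. In both cases Tlr11 was tested only because it reached 1 FPKM in WT CDG. Among all genes tested, 4.91% and 2.69% were called lower. Their direction in treated WT BMDCs was opposite to that of the 5 receptor genes that rose.

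A set of 9 genes that the study itself names as its Toll-like receptor pathway genes (the receptors Tlr9, Tlr7 and Tlr3, the co-receptor Cd180, the kinases Irak2 and Tbk1, and the cathepsins Ctsl, Ctsk and Ctsb) was read by the same rule. The study chose this list on these samples, so it is not independent evidence of a direction. In treated WT against untreated WT BMDCs 8 of the 9 rose, beside 10.5% of all genes. Against treated WT BMDCs, 7 of the 9 were lower in Tmem173-/- (13.5% of all genes), 3 in Irf1-/- (Tlr3, Tlr9 and Cd180; 4.91% of all genes) and 1 in Irf3/7-/- BMDCs (Tlr3; 2.69% of all genes), and none was higher.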

How the data were processed

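RNA-seq libraries (TruSeq Stranded mRNA) of BMDCs were made for 16 samples, 2 per condition. The authors ran Cuffdiff (1.06 in the submitters' processing notes, another version in the paper) and deposited 1 FPKM per gene and condition with interval bounds and a status. Values per replicate were not used here. An aligner and annotation are not given in the sources used here. Although mm9 is named in the processing notes, 21283 of 21519 loci matched by symbol (98.9%) overlapped GRCm38 genes. The column TM173GDP was read as Tmem173-/- CDG, and 4 columns of another knockout were not used. Depth is unknown.

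Calls needed more than 2-fold on log2(FPKM + 0.1), intervals that did not overlap, 1 FPKM in one condition and status OK in both. They were tested on simulated data. The members, lists and naming rule (all members, up to 4 called genes per list in WT, the 3 most similar genes of 4 members) were chosen with earlier results of these data known. One gene that the rule names is not reported here. Alternatives were a pseudocount of 1 FPKM, no filter, a minimum of 5 FPKM, 1.5-fold, fold change alone and median centring. Promoters came from RefSeq, exons from GENCODE. Python 3.11.15, numpy 2.4.6, pandas 2.3.3 and matplotlib 3.10.9 were used.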

Additional observations from a re-analysis of the deposited data

How the results depend on the processing

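Of the 10 counts of called receptor genes, 6 moved by over 1.5 times under an alternative. With a pseudocount of 1 FPKM, 3 genes in place of 5 were called in the WT response, 3 in place of 5 in Tmem173-/- CDG against WT CDG and 0 in place of 1 in Irf1-/- NT against WT NT. With a minimum of 5 FPKM, 1 in place of 2 was called in the Irf1-/- response and 0 in Irf1-/- NT against WT NT. A threshold of 1.5-fold gave 6 in place of 3 in the Irf3/7-/- response, 3 in place of 1 in Irf3/7-/- CDG against WT CDG and 2 in Irf1-/- NT against WT NT, where the count without a filter was also 2. No direction reversed. Fold change alone and median centring changed no call of a member. No paired analysis was possible because the table holds 1 value per condition, and for the same reason no replicate could be left out. FPKM values give no depth, and the authors' interval cannot be checked against replicates.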
